A study of Macaca mulatta with 14 samples.

Results

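The HOX genes of the rhesus macaque (Macaca mulatta) were followed while fetal fibroblasts were converted to neuroepithelial stem cells (NESCs). The members were all loci whose gene symbol is HOX followed by a cluster letter from A to D and a number, and 34 such genes were found among 33688 loci with values. They fall into 9 HOXA, 9 HOXB, 8 HOXC and 8 HOXD genes. HOXA4, HOXA6, HOXB6, HOXC5 and HOXD4 were not analysed here.

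HOX genes encode homeodomain transcription factors that lie in clusters, and their order along a cluster follows the order of their expression domains from the head end to the tail end of the embryo. Genes of low paralog number, at the 3′ end of a cluster, are expressed from the hindbrain backwards, and genes of high number, at the 5′ end, are expressed in the posterior trunk and the limbs. Adult and fetal fibroblasts keep a HOX pattern that reflects the body site they were taken from, which is known as positional memory. Below, paralog groups 1 to 4 are called anterior (10 members), groups 5 to 8 central (8 members) and groups 9 to 13 posterior (16 members).

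Total RNA of 7 cell lines was sequenced after depletion of ribosomal RNA, with 2 libraries for each line. The NESC lines were CHIR-P6 and CHIR-P23, which are epithelial colonies at passages 6 and 23, and C8-P7 and A9-P7, each a colony grown from a single cell of the passage 23 culture. The labels of both colonies give passage 23, whereas their names end in P7. The earlier lines were RF-P3, ear skin fibroblasts at passage 3 from 2 male fetuses of embryonic day 65 in DMEM with serum, and the lines named RF-iN-d5 (5 days) and RF-iN-d11 (11 days), taken after the conversion began. All lines other than RF-P3 had been infected with retroviruses carrying rhesus OCT4, SOX2 and KLF4 and kept on laminin. RF-iN-d5 and RF-iN-d11 were grown in an induction medium with 3 µM CHIR99021 (an inhibitor of the kinase GSK3 that activates WNT signalling), 5 µM SB431542 (an inhibitor of TGF-β receptors) and 10 ng/ml bFGF. That medium began with Y27632, a ROCK inhibitor removed at day 5, and with valproic acid, a histone deacetylase inhibitor removed at day 7, for which the sample labels and the methods state different doses. The NESC lines were grown in a medium with SB431542, bFGF and 1000 U/ml hLIF, to which the labels, but not the methods, add CHIR99021. The lines follow each other in 1 conversion, and C8-P7 and A9-P7 are each 1 clone, so the p-values below measure the spread between lines and not between independent conversions, and effects of medium and stage cannot be told apart.

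The values are FPKM (fragment counts scaled by transcript length and library size), so that levels of different genes can be set side by side. The difference between the libraries of a line was below the sampling noise, so they were counted as 1 sample, and the largest difference between them for any HOX gene was 0.17 on the log2(FPKM + 1) scale. Library totals lay between 571238 and 697883 FPKM. In the deposited table most values stood 1 position away from their gene label and were moved back before use, so every level below depends on that shift. Relative depth, read from the steps between low values, was 1, 1.41 and 1.26 in RF-P3, RF-iN-d5 and RF-iN-d11, and 1.54, 4.73, 1.27 and 5.28 in CHIR-P6, CHIR-P23 and the colonies C8-P7 and A9-P7. For HOXC8, 1 fragment corresponded to 0.217 FPKM in CHIR-P6 and 0.0632 FPKM in A9-P7, against 0.334 FPKM in RF-P3. Of 8 fibroblast markers, 8 fell in the NESC lines, where they summed to between 13.3 and 58.7 FPKM, against 2814 to 6292 FPKM in the earlier lines. Of 8 neuroepithelial markers, 7 rose, and the list summed to between 772 and 1184 FPKM in the NESC lines, against 145 to 307 FPKM in the earlier lines. When 1 line was left out, the neuroepithelial count was 6 (CHIR-P6 left out), 5 (either RF-P3 or RF-iN-d11), 4 (CHIR-P23 or either colony) or 3 (RF-iN-d5), whereas the fibroblast count was 8 each time. POU5F1 (OCT4), 1 of the introduced factors, was at 631 and 461 FPKM in RF-iN-d5 and RF-iN-d11, against 0.174 FPKM in the uninfected fibroblasts. In CHIR-P6, CHIR-P23 and the colonies C8-P7 and A9-P7 it was still at 181, 74.7, 14.3 and 298 FPKM.

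HOX transcripts did not disappear during the conversion, but their composition changed. The summed FPKM of all 34 members was 182, 173 and 147 in RF-P3, RF-iN-d5 and RF-iN-d11, and 154, 119, 119 and 116 in CHIR-P6, CHIR-P23 and the colonies C8-P7 and A9-P7. Anterior genes held 26.9%, 38.3% and 31.1% of this sum in RF-P3, RF-iN-d5 and RF-iN-d11, and 41.4%, 58.2%, 95.0% and 97.8% in the NESC lines in the same order. The posterior share was 12.2%, 16.7% and 20.4% in RF-P3, RF-iN-d5 and RF-iN-d11. It was 32.3% at passage 6 and 23.5% at passage 23 of the CHIR line, and it was under 1% in both colonies (0.775% in C8-P7, 0.157% in A9-P7). The number of members at 1 FPKM or more was 22, 20 and 23 in RF-P3, RF-iN-d5 and RF-iN-d11, and 18, 13, 9 and 8 in these NESC lines. Anterior members at this limit numbered 7 or 8 of 10 in every line, whereas the count of central members was 8 of 8 in each earlier line and 5, 3, 2 and 1 in CHIR-P6, CHIR-P23 and the colonies C8-P7 and A9-P7.

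**Figure D1:**
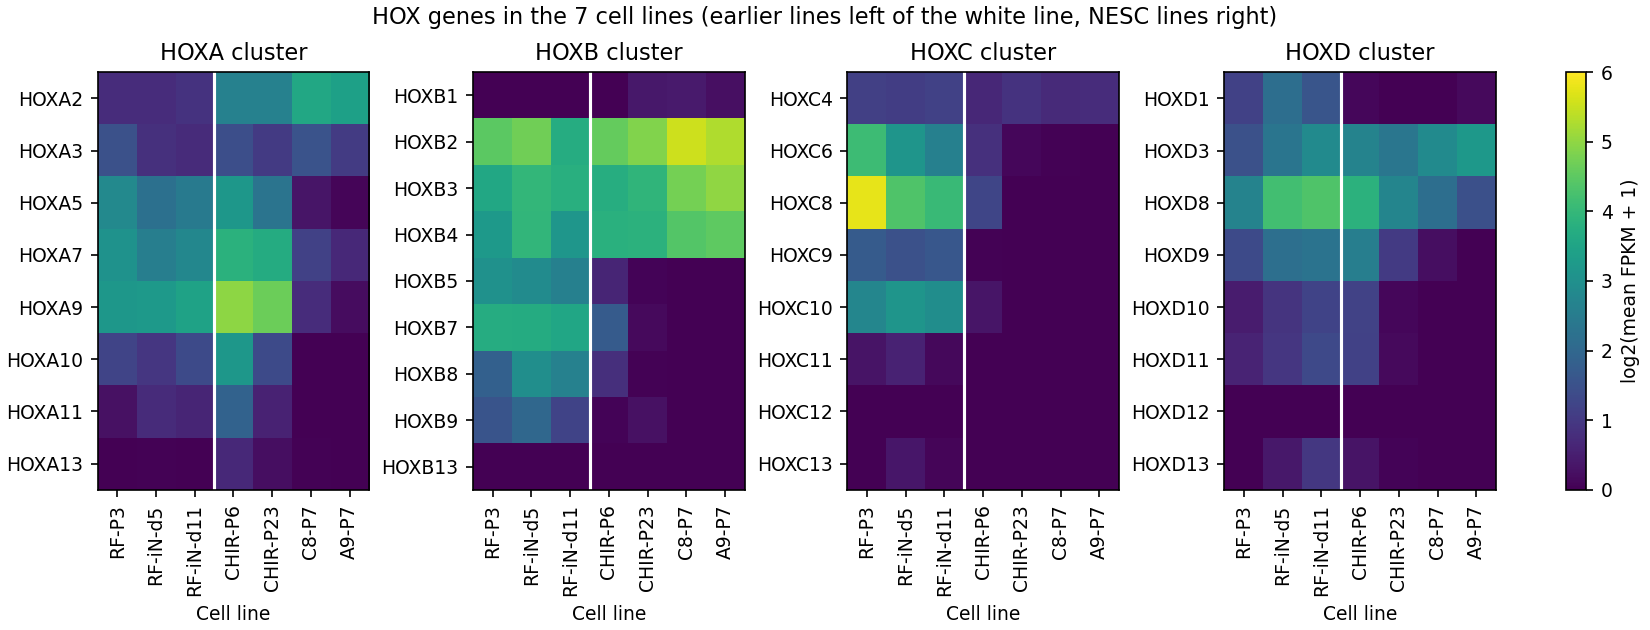
Level of 33 HOX genes in the 7 cell lines, as log2(mean FPKM + 1) by colour, with 1 panel for each cluster, genes from low to high paralog number downwards and lines in the order of the conversion. HOXB2 to HOXB4 are bright in every line, and HOXA7 and HOXA9 stay bright up to CHIR-P23. HOXC6 to HOXC10 and HOXB5 to HOXB9 are darker from CHIR-P6 on than in the earlier lines.

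**Figure D2:**
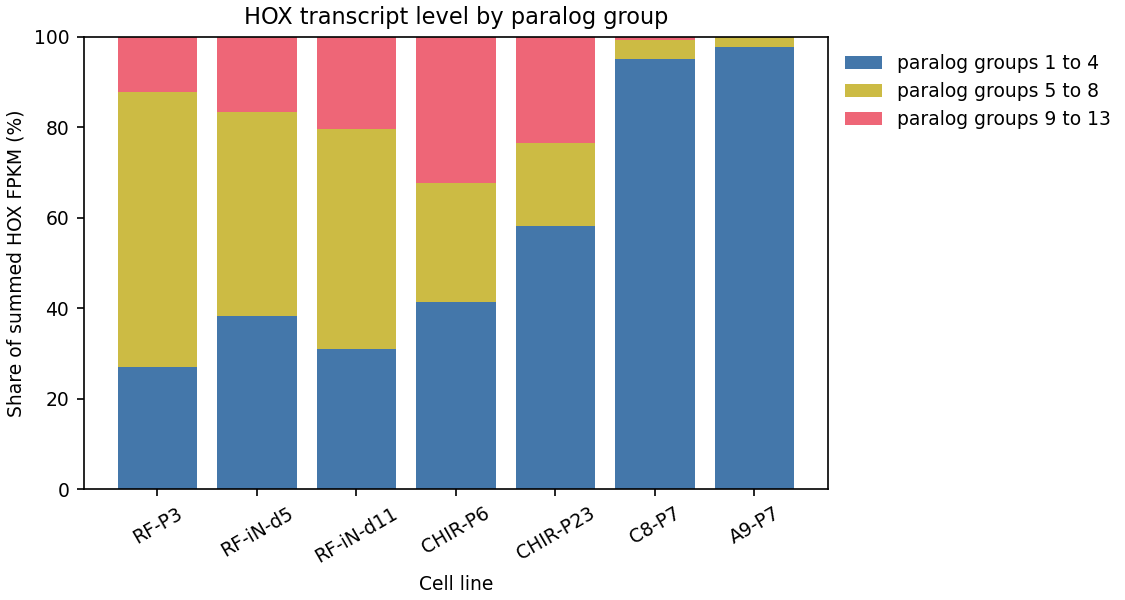
Share of the summed HOX FPKM (%) that came from paralog groups 1 to 4, 5 to 8 and 9 to 13 in each cell line, as stacked bars. Groups 1 to 4 reach 95.0% in colony C8-P7 and 97.8% in colony A9-P7.

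A test was possible between the 4 NESC lines and the 3 earlier ones, for which log2(FPKM + 1) was fitted with limma. Calls required a Benjamini-Hochberg adjusted p under 0.05 and a change of at least 1 in size on the log2 scale. Of the 34 members, 26 reached 1 FPKM in at least 2 libraries and were tested among 15024 genes. HOXA2 alone of the 26 rose, beside 7.57% of all genes tested, and 9 fell, beside 13.2% of all genes tested. The 9 were HOXB5, HOXB7, HOXB8, HOXB9, HOXC6, HOXC8, HOXC9, HOXC10 and HOXD1, and the other 16 did not pass the test. By class, 5 of 8 central, 3 of 9 tested posterior and 1 of 9 tested anterior members fell. The median log2 fold change was -0.63 over the 26 members, beside -0.02 over all genes tested. The lines did not overlap between the groups for 10 members that were lower, beside 24.7% of all genes tested, and for 1 that was higher, beside 21.1%. Fold changes on this scale understate the change of genes with low FPKM.

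**Figure D3:**
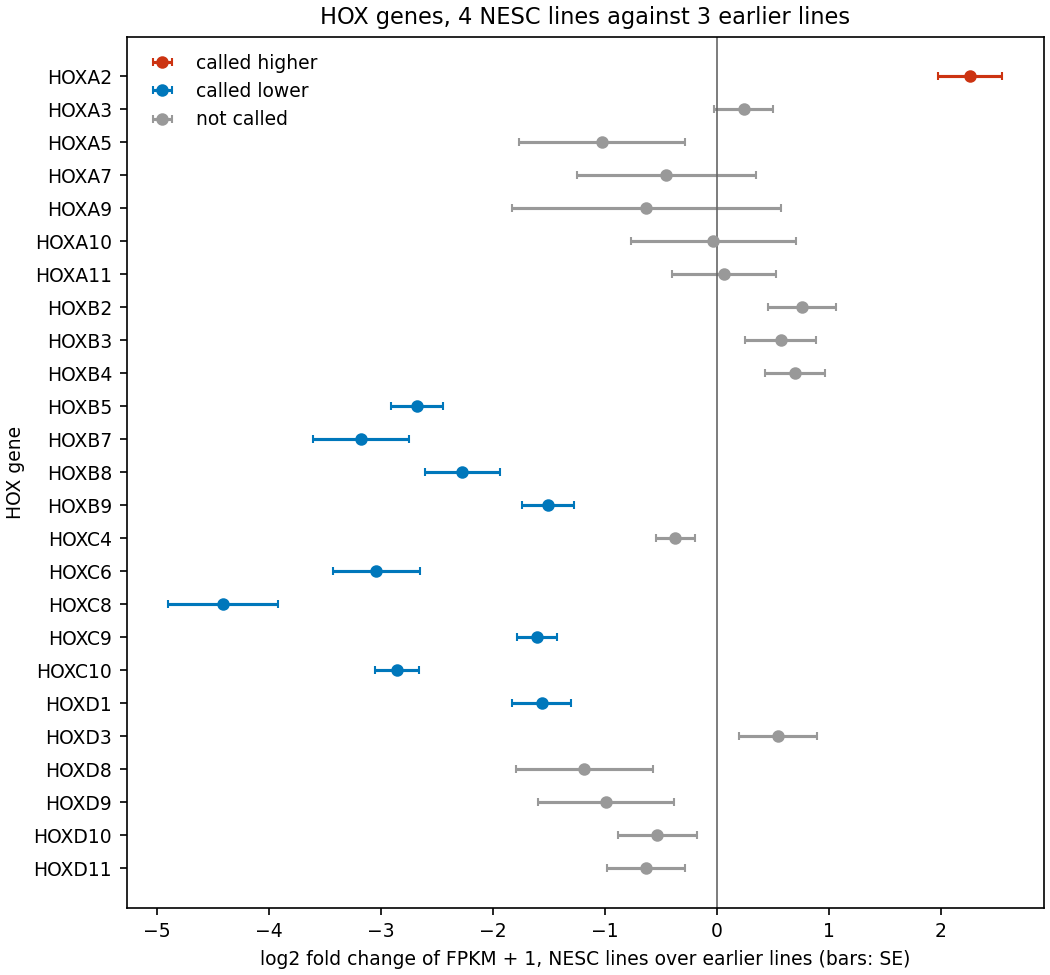
Log2 fold change of FPKM + 1, 4 NESC lines over 3 earlier lines, for 25 of the HOX genes tested (points, with bars for the SE). HOXA2 is the gene called higher, the 9 called lower lie between HOXC8 at -4.41 and HOXB9 at -1.51, and HOXA5 to HOXA10 have wide bars.

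In the NESC lines the HOXC cluster was low throughout. HOXC8, which patterns thoracic segments in the mouse and had the highest level of any member in RF-P3, was at 1.40 FPKM in CHIR-P6 and listed at 0 in CHIR-P23, C8-P7 and A9-P7, against 54.0, 19.2 and 15.6 FPKM in RF-P3, RF-iN-d5 and RF-iN-d11 (log2 fold change -4.41, SE 0.49, limma adjusted p = 0.00077). RF-iN-d5 was already lower than RF-P3 for this gene (log2 difference -1.44, with no test). HOXC6, a gene of the brachial spinal cord, was at 0.792, 0.0809, 0.0200 and 0 FPKM in CHIR-P6, CHIR-P23 and the colonies C8-P7 and A9-P7, against 16.4, 7.79 and 5.10 FPKM in RF-P3, RF-iN-d5 and RF-iN-d11 (log2 fold change -3.04, SE 0.39, limma adjusted p = 0.0013). Each of these genes was below every earlier line in every NESC line. Although RF-P3 came from ear skin, its highest member was HOXC8, a gene of thoracic segments. Whether the HOX pattern of RF-P3 matches ear skin was not tested.

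HOXC10, a gene of the lumbar level and hindlimb, was at 0.270 FPKM in CHIR-P6 and listed at 0 in the later NESC lines, against 5.73, 7.74 and 6.74 FPKM in RF-P3, RF-iN-d5 and RF-iN-d11 (log2 fold change -2.86, SE 0.20, limma adjusted p = 0.00011). HOXC9, a thoracic gene, was at 0.0172, 0.00562, 0 and 0 FPKM in CHIR-P6, CHIR-P23 and the colonies C8-P7 and A9-P7, against 2.32, 1.82 and 2.07 FPKM in RF-P3, RF-iN-d5 and RF-iN-d11 (log2 fold change -1.61, SE 0.18, limma adjusted p = 0.00074). HOXC4, the anterior member of the cluster, kept a low level of 0.586 to 0.848 FPKM in the NESC lines, against 1.14 to 1.22 FPKM in the earlier lines, and although these ranges do not overlap it did not pass the test (log2 fold change -0.37, SE 0.17, limma adjusted p = 0.13). HOXC11 was listed at 0 in every NESC line, against 0.0961 to 0.488 FPKM in the earlier lines. HOXC13 was also listed at 0 in every NESC line, and reached 0.292 FPKM in RF-iN-d5. Summed over the cluster, CHIR-P6 held 3.84% of the FPKM of RF-P3, whereas the 8 fibroblast markers held 0.933%.

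The HOXB cluster was split between HOXB4 and HOXB5. HOXB7 was at 2.30, 0.111, 0 and 0 FPKM in CHIR-P6, CHIR-P23 and the colonies C8-P7 and A9-P7, against 12.1, 11.9 and 10.7 FPKM in RF-P3, RF-iN-d5 and RF-iN-d11 (log2 fold change -3.18, SE 0.43, limma adjusted p = 0.0016). HOXB5 was at 0.548, 0.0431, 0 and 0 FPKM in CHIR-P6, CHIR-P23 and the colonies C8-P7 and A9-P7, against 7.16, 6.48 and 5.13 FPKM in RF-P3, RF-iN-d5 and RF-iN-d11 (log2 fold change -2.68, SE 0.23, limma adjusted p = 0.00029). Both genes, like HOXB8 and HOXB9, were listed at 0 in both colonies. HOXB8 was at 0.742 and 0.0242 FPKM in CHIR-P6 and CHIR-P23, against 2.59, 6.87 and 5.18 FPKM in RF-P3, RF-iN-d5 and RF-iN-d11 (log2 fold change -2.27, SE 0.34, limma adjusted p = 0.0024). HOXB9 was at 0.0389 and 0.209 FPKM in CHIR-P6 and CHIR-P23, against 1.95, 2.98 and 1.33 FPKM in RF-P3, RF-iN-d5 and RF-iN-d11 (log2 fold change -1.51, SE 0.24, limma adjusted p = 0.0030). HOXB13, the most posterior gene of the cluster, was listed at 0 in every line.

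On the other side of that border, HOXB2, HOXB3 and HOXB4 were at 7.85 FPKM or more in every line. HOXB2, a hindbrain gene expressed from the boundary of rhombomeres 2 and 3 backwards in the mouse, was at 22.8, 28.2, 45.7 and 38.0 FPKM in CHIR-P6, CHIR-P23 and the colonies C8-P7 and A9-P7, against 21.5, 25.2 and 12.2 FPKM in RF-P3, RF-iN-d5 and RF-iN-d11 (log2 fold change 0.76, SE 0.31, limma adjusted p = 0.084). HOXB3 was at 12.4, 14.2, 25.8 and 31.1 FPKM in the same NESC lines, against 11.0, 14.7 and 12.8 FPKM in the earlier lines (log2 fold change 0.57, SE 0.32, limma adjusted p = 0.19). HOXB4, a gene of the posterior hindbrain that also expands blood stem cells, was at 12.9, 13.5, 20.2 and 21.7 FPKM, against 8.37, 14.4 and 7.85 FPKM (log2 fold change 0.70, SE 0.27, limma adjusted p = 0.074). None of the 3 passed the test, and for each the highest values were those of both colonies. HOXB1, a gene of rhombomere 4, was listed at 0 in CHIR-P6 and in the earlier lines and was at 0.299 FPKM in CHIR-P23, 0.346 FPKM in C8-P7 and 0.185 FPKM in A9-P7. For this gene 1 fragment corresponded to 0.143 to 0.220 FPKM in the lines listed at 0. It corresponded to 0.0465, 0.173 and 0.0416 FPKM in CHIR-P23, C8-P7 and A9-P7. A similar level in the lines listed at 0 could therefore have been missed.

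The HOXA cluster followed another course. HOXA2, which gives the second pharyngeal arch and the anterior hindbrain their identity in the mouse, averaged 7.77 ± 3.05 FPKM over the NESC lines (SD, n = 4), against 0.746 ± 0.0812 FPKM over the earlier lines (SD, n = 3). It was at 5.19, 5.18, 11.1 and 9.63 FPKM in CHIR-P6, CHIR-P23 and the colonies C8-P7 and A9-P7, against 0.696, 0.702 and 0.840 FPKM in RF-P3, RF-iN-d5 and RF-iN-d11 (log2 fold change 2.26, SE 0.29, limma adjusted p = 0.0013). HOXA3, a gene of the third pharyngeal arch, was at 1.02 to 1.88 FPKM in the NESC lines, against 0.664 to 1.81 FPKM in the earlier lines. These ranges overlapped and the gene did not pass the test (limma adjusted p = 0.49).

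The central and posterior HOXA genes were low in both colonies, whereas in the CHIR lines HOXA7 and HOXA9 lay above all earlier lines and HOXA5 did so in CHIR-P6 alone. HOXA9, best known from blood progenitors and leukaemia, was at 30.4, 24.2, 0.708 and 0.157 FPKM in CHIR-P6, CHIR-P23 and the colonies C8-P7 and A9-P7, against 8.02, 8.35 and 9.91 FPKM in RF-P3, RF-iN-d5 and RF-iN-d11 (log2 fold change -0.63, SE 1.20, limma adjusted p = 0.70). HOXA7 was at 13.2, 12.01, 1.23 and 0.625 FPKM in these NESC lines, against 7.28, 4.92 and 5.86 FPKM in the earlier lines (log2 fold change -0.45, SE 0.80, limma adjusted p = 0.67). HOXA5 was at 8.04, 3.94, 0.272 and 0.0511 FPKM, against 6.11, 3.68 and 4.43 FPKM (log2 fold change -1.02, SE 0.74, limma adjusted p = 0.30). For all 3 genes both colonies lay below all earlier lines. Without both colonies, a setting chosen after seeing the data, HOXA9 was called higher in CHIR-P6 and CHIR-P23 (log2 fold change 1.53, limma adjusted p = 0.018), so that 2 members rose beside 2.5% of all genes tested and 6 fell beside 5.68%. HOXB8 (log2 fold change -2.06), HOXB9 (-1.43) and HOXD1 (-1.58) missed the threshold in that smaller fit, at sizes close to those with all lines (limma adjusted p between 0.051 and 0.056).

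HOXA10 and HOXA11, which pattern the proximal and middle limb and the reproductive tract, peaked at passage 6. HOXA10 was at 8.08, 1.54, 0.0152 and 0 FPKM in CHIR-P6, CHIR-P23 and the colonies C8-P7 and A9-P7, against 1.34, 0.923 and 1.53 FPKM in RF-P3, RF-iN-d5 and RF-iN-d11. HOXA11 was at 2.68, 0.494, 0 and 0 FPKM in the same NESC lines, against 0.211, 0.674 and 0.547 FPKM in the earlier lines. Neither passed the test (limma adjusted p = 0.98 for HOXA10 and 0.92 for HOXA11). HOXA13, a gene of the digits and the hindgut, did not reach 1 FPKM in any library, and its highest mean level was also that of CHIR-P6, at 0.620 FPKM. Summed from HOXA5 to HOXA11, the level was 62.4 FPKM in CHIR-P6, 42.2 FPKM in CHIR-P23, 2.23 FPKM in C8-P7 and 0.833 FPKM in A9-P7, against 23.0, 18.5 and 22.3 FPKM in the fibroblasts and at days 5 and 11.

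In the HOXD cluster, HOXD1 fell, the posterior genes were low after passage 6, and HOXD3 did not pass the test. HOXD1 was at 0.0826, 0, 0 and 0.120 FPKM in CHIR-P6, CHIR-P23 and the colonies C8-P7 and A9-P7, against 1.23, 3.46 and 2.01 FPKM in RF-P3, RF-iN-d5 and RF-iN-d11 (log2 fold change -1.56, SE 0.26, limma adjusted p = 0.0039). It was the sole anterior member that fell. HOXD3 was at 5.45, 4.11, 6.31 and 8.25 FPKM in the NESC lines, against 1.82, 4.03 and 6.31 FPKM in the earlier lines (log2 fold change 0.55, SE 0.35, limma adjusted p = 0.24).

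HOXD8 was at 13.5, 5.64, 3.49 and 1.75 FPKM in CHIR-P6, CHIR-P23 and the colonies C8-P7 and A9-P7, against 5.46, 17.1 and 19.4 FPKM in RF-P3, RF-iN-d5 and RF-iN-d11 (log2 fold change -1.18, SE 0.61, limma adjusted p = 0.16). HOXD9, a gene of the limb and the posterior spinal cord, was at 4.88, 1.03, 0.174 and 0.00648 FPKM in the NESC lines, against 1.56, 3.54 and 3.90 FPKM in the earlier lines (log2 fold change -0.99, SE 0.60, limma adjusted p = 0.23). Without CHIR-P6, HOXD8 (log2 fold change -1.62) and HOXD9 (-1.52) were called lower, and the count of members that fell was 11, beside 14% of all genes tested. HOXD10 was at 1.27, 0.0673, 0 and 0 FPKM and HOXD11 at 1.24, 0.111, 0 and 0 FPKM in the NESC lines, against 0.363, 0.872 and 1.29 FPKM for HOXD10 and 0.525, 0.935 and 1.51 FPKM for HOXD11 in the earlier lines. Both pattern the limb and the lumbar level, and in CHIR-P6 both were within the range of the earlier lines. HOXD13, a digit gene, was at 0.235, 0.0418, 0 and 0.0125 FPKM in the NESC lines, against 0, 0.304 and 0.964 FPKM in the earlier lines. HOXD12, like HOXC12, was listed at 0 in every line.

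The members were lower at different steps of the conversion. With 1 sample for each line these steps have no test, and a difference of at least 2-fold on log2(FPKM + 1) was counted among the 26 members tested. RF-iN-d5 was higher than RF-P3 for 3 members (HOXB8, HOXD1 and HOXD8), beside 9.37% of all genes, and lower for HOXC8 alone, beside 8.42%. RF-iN-d11 was neither higher nor lower than RF-iN-d5 by that limit for any member, beside 2.85% and 2.52% of all genes.

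At CHIR-P6, 9 members were lower than in RF-iN-d11, beside 13.1% of all genes, and all 9 are also the genes called lower by limma, a test that includes both lines. The same step held 5 members that were higher, beside 8.49% of all genes, and all were HOXA genes (HOXA2, HOXA7, HOXA9, HOXA10 and HOXA11). At CHIR-P23, 8 members were lower than in CHIR-P6, beside 4.28% of all genes, and none was higher, beside 1.39%. Of these 8, HOXA10, HOXA11, HOXD8, HOXD9, HOXD10 and HOXD11 passed the limit downwards for the first time, and HOXB7 and HOXC8 for a further time. Both colonies were then lower than CHIR-P23 for HOXA5, HOXA7, HOXA9 and HOXA10. C8-P7 passed the limit for these 4 alone, beside 2.39% of all genes, and for no member upwards, beside 1.04%. A9-P7 also did so for HOXD8 and HOXD9 (6 members, beside 2.59%), and HOXB3 was higher (1 member, beside 1.57%). The colonies share CHIR-P23 as their reference, so these lists are not independent of each other.

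**Figure D4:**
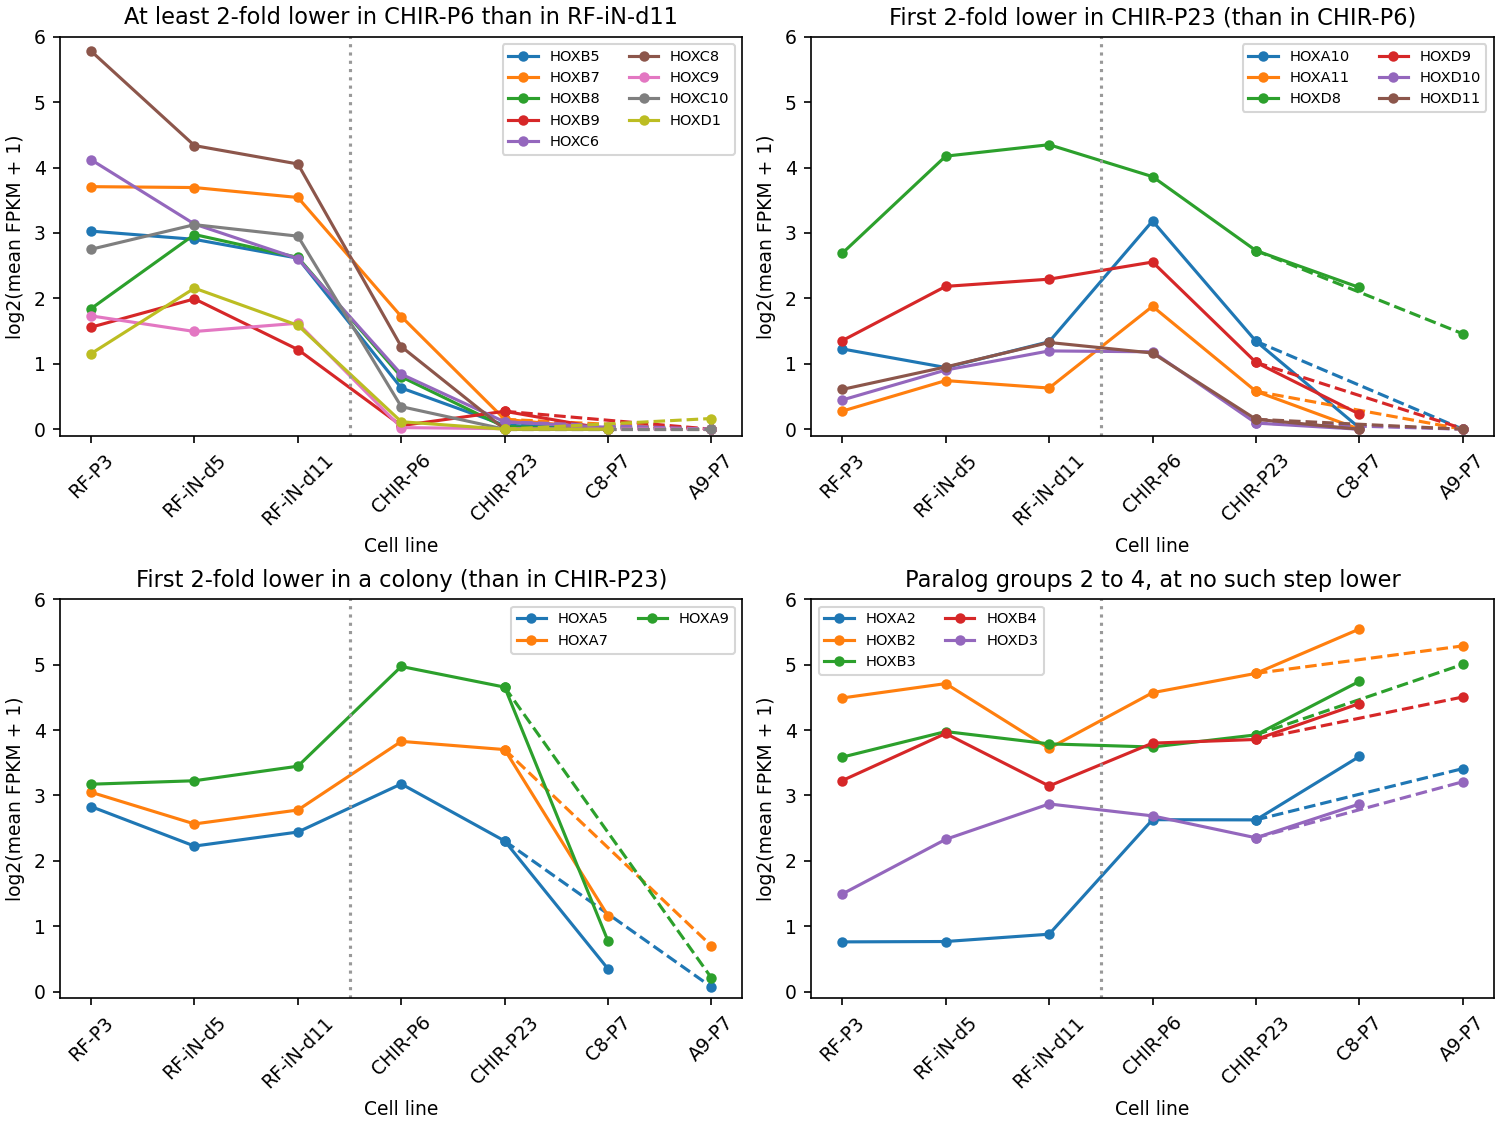
Profiles of HOX genes over the 7 cell lines as log2(mean FPKM + 1), grouped by the step at which they were first at least 2-fold lower among the NESC lines, with solid lines up to C8-P7 and dashed lines from CHIR-P23 to A9-P7. The grouping was read from these values, with 9 genes at CHIR-P6, 6 genes at CHIR-P23 and 3 genes in the colonies, while HOXA2, HOXB2, HOXB3, HOXB4 and HOXD3 were not lower at any of these steps. HOXA3 and HOXC4 were not 2-fold lower at these steps either and are not drawn.

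CHIR-P6 also differed from the later NESC lines in markers of other cells. The 7 measured markers of tail bud and early mesoderm summed to 98.6 FPKM in CHIR-P6, 6.94 FPKM in CHIR-P23, 0.0518 FPKM in C8-P7 and 0.375 FPKM in A9-P7, against 0.223 to 0.589 FPKM in the earlier lines. WNT8A gave 96.0 FPKM of the sum in CHIR-P6, and the defining genes T, MSGN1 and TBX6 were listed at 0 there. The 4 skeletal muscle markers summed to 133 FPKM in CHIR-P6, nearly all of it DES, with MYOD1 and MYF5 listed at 0, and to between 0.282 and 12.99 FPKM in the later NESC lines, against 1.22 to 59.8 FPKM in the earlier lines. Fibroblast markers were at 58.7 FPKM in CHIR-P6, against 4652 FPKM in RF-iN-d11. The part of such cells in the HOX levels of CHIR-P6 was not tested, and in bulk RNA fewer cells of a type and less RNA per cell cannot be told apart.

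HOX proteins bind DNA together with TALE homeodomain cofactors of the PBX, MEIS and PKNOX families. Of 8 such cofactors tested, 4 rose, beside 7.57% of all genes tested, none fell and 4 did not pass the test, with a median log2 fold change of 1.10. PKNOX2 rose by a log2 of 1.96 (SE 0.25, limma adjusted p = 0.0013), PBX3 by 1.44 (SE 0.24, adjusted p = 0.0037), MEIS3 by 1.41 (SE 0.24, adjusted p = 0.0041) and MEIS1 by 1.38 (SE 0.36, adjusted p = 0.021). MEIS1 was at 5.97, 11.3, 17.8 and 18.9 FPKM in CHIR-P6, CHIR-P23 and the colonies C8-P7 and A9-P7, against 4.47, 3.66 and 4.37 FPKM in RF-P3, RF-iN-d5 and RF-iN-d11. MEIS1 did not pass the test when either colony, RF-iN-d11 or RF-iN-d5 was left out (limma adjusted p up to 0.069). Of 9 genes of the MLL/menin (trithorax) complexes and the H3K27 demethylases, which keep HOX loci active, none was called, and their median log2 fold change was 0.31. DPY30, a core subunit, was the highest of them in CHIR-P23, at 65.7 FPKM, against 33.6 to 45.4 FPKM in the earlier lines (log2 fold change 0.56, SE 0.18, limma adjusted p = 0.039).

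Regulators of the hindbrain moved apart. Of 4 tested, 1 rose, beside 7.57% of all genes tested, and 2 fell, beside 13.2%. GBX2, a factor of the anterior hindbrain, rose to 12.7, 19.4, 18.8 and 26.2 FPKM in CHIR-P6, CHIR-P23 and the colonies C8-P7 and A9-P7, against 0.0969, 1.03 and 3.03 FPKM in RF-P3, RF-iN-d5 and RF-iN-d11 (log2 fold change 3.24, SE 0.43, limma adjusted p = 0.0016). EGR2 (log2 fold change -1.04, SE 0.20, limma adjusted p = 0.0067), which switches on HOX genes in rhombomeres 3 and 5 in the mouse, fell from low levels. It was at no more than 0.0409 FPKM in the NESC lines, against 1.40, 0.726 and 1.25 FPKM in RF-P3, RF-iN-d5 and RF-iN-d11. EGR2 missed the limit of 1 without RF-P3 or RF-iN-d11 (log2 fold change -0.94 without RF-P3). With quantile normalization 1 of the 4 regulators fell and 1 rose, beside 1726 lower and 1576 higher of 15067 genes tested. With rescaling the counts of regulators were the same, beside 1818 lower and 1392 higher of 15032 genes tested. Of the 13 homeobox genes of the forebrain and midbrain, 3 were tested and 2 fell, beside 13.2% of all genes tested. These were EMX2 (log2 fold change -3.65, SE 0.49, limma adjusted p = 0.0016) and EN1 (-3.05, SE 0.29, adjusted p = 0.00042). Both were highest in RF-P3, the uninfected fibroblasts, at 33.1 FPKM for EMX2 and 10.7 FPKM for EN1. In the NESC lines they were at no more than 0.256 FPKM (EMX2) and 0.0394 FPKM (EN1). The 10 genes not tested stayed under 1 FPKM, among them OTX2, named after its values were seen, at no more than 0.0137 FPKM. Of 8 ParaHox and EVX genes, which are relatives of the HOX genes, 2 were tested and neither was called.

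Some genes that mark the body site of mesenchyme fell as well. Of 7 trunk and limb genes tested, 5 fell, beside 13.2% of all genes tested, and none rose, with a median log2 fold change of -1.91. TBX15, a factor of trunk skin and limb mesenchyme, was at 4.17, 0.150, 0 and 0.0545 FPKM in CHIR-P6, CHIR-P23 and the colonies C8-P7 and A9-P7, against 19.7, 17.7 and 21.0 FPKM in RF-P3, RF-iN-d5 and RF-iN-d11 (log2 fold change -3.69, SE 0.56, limma adjusted p = 0.0027). TBX18 (log2 fold change -2.33), HAND2 (-2.30) and SHOX2 (-1.91) also fell. Without RF-P3, 2218 of 15024 genes tested fell and 1204 rose. Of the 7 trunk and limb genes 3 then fell and 2 rose, IRX3 and IRX5. With all lines these 2 went upwards without passing the test, by a log2 of 1.32 for IRX3 (limma adjusted p = 0.12) and 0.97 for IRX5 (adjusted p = 0.10). IRX3 was at 17.1 to 39.5 FPKM in the NESC lines, against 4.08 to 29.7 FPKM in the earlier lines. IRX5 was at 8.17 to 19.7 FPKM, against 4.14 to 12.4 FPKM. SHOX2 passed the test with all lines or without CHIR-P6, and without any other line it did not (limma adjusted p up to 0.115). Of 13 cranial mesenchyme genes tested, 3 fell, beside 13.2% of all genes tested, and 2 rose, beside 7.57%. MSX1 (log2 fold change -3.53), DLX5 (-2.19) and MSX2 (-1.27) were among those that fell and EYA1 (1.45) among those that rose. MSX2 did not pass when CHIR-P6, either colony, RF-iN-d11 or RF-iN-d5 was left out (limma adjusted p up to 0.095). Without CHIR-P23, 1 of the 13 cranial genes rose, beside 988 of 15024 genes tested. The median log2 fold change of this list was -0.44.

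The genes beside the clusters were compared as well, using the 3 named genes on each side. Of 19 tested, 4 fell, beside 13.2% of all genes tested, 1 rose, beside 7.57%, and 14 were not called. Their median log2 fold change was -0.13. SKAP2, an adaptor protein gene beside the 3′ end of the HOXA cluster, was at 19.9, 13.8, 3.26 and 5.17 FPKM in CHIR-P6, CHIR-P23 and the colonies C8-P7 and A9-P7, against 27.9, 32.0 and 23.9 FPKM in RF-P3, RF-iN-d5 and RF-iN-d11 (log2 fold change -1.60, SE 0.53, limma adjusted p = 0.046). Its levels in both colonies were below those of CHIR-P23, as for HOXA5 to HOXA10, while for HOXA2, which lies between them, both colonies were above CHIR-P23. CALCOCO1 (-1.12), on the HOXC13 side, and NFE2L2 (-1.10), on the HOXD1 side, also fell, and CBX5, a heterochromatin protein gene on the HOXC4 side, rose by 1.11. Several of these calls rested on single lines. SKAP2 passed the test with all lines or without CHIR-P6 and lost its call without any other line (limma adjusted p up to 0.129). CBX5 lost its call without any line other than RF-P3 or CHIR-P6 (limma adjusted p up to 0.086). NFE2L2 missed the limit of 1 without RF-P3 (-0.91), where 2 flanking genes fell, beside 2218 of 15024 genes tested. With quantile normalization 2 flanking genes rose and 0 fell, beside 1576 higher and 1726 lower of 15067 genes tested. With rescaling 2 rose and 1 fell, beside 1392 higher and 1818 lower of 15032 genes tested.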

How the data were processed

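The authors aligned paired-end reads with HISAT2 2.1.0 against Mmul_8.0.1, and Cufflinks 2.2.1 with Cuffnorm 2.2.1 gave the deposited FPKM values (submitters' processing notes). Whether the strand was used is not given in the sources used here. No read counts were used. In 28445 of 33737 loci the values stood 1 position too low in the table, so these were moved up, and 49 labels were dropped. Of 105 genes of the study's gene table within 200 positions of a HOX gene, 93 then matched it in all 7 averages (within 0.3 on the log2 scale), and 0 did as labelled. HOXA3, HOXA5, HOXB5 and HOXC6 have assembled loci that differ from the annotated transcript, and in RefSeq (T2T-MMU8v2.0) HOXA3 overlaps HOXA5 and HOXA7, HOXB3 overlaps HOXB4, and HOXD10 overlaps HOXD11, so reads of these neighbours may be shared and their levels are uncertain. Flanking genes were taken from the same RefSeq table, since the plan's coordinates were not used here, and 23 of 24 matched.

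Pairs of libraries were compared by the squared difference of their fragments over their sum (0.22 to 0.27, where independent libraries give about 1), and each pair was averaged, although the study's methods describe them as biological replicates. The averages of 4 NESC lines and 3 earlier lines were compared by a two-sided limma fit (3.58.1, R 4.3.3) with a trend on log2(FPKM + 1), for the 15024 genes that reached 1 FPKM in at least 2 libraries. Alternatives were pseudocounts of 0.1 and 5, no filter, quantile normalization, rescaling, no trend, the 14 libraries as samples with and without a replicate block, labels as deposited, no fold limit, and leaving out each line. All members were named, apart from results that are not reported here. From each other list up to 4 called genes were named by size of change, or a gene at 10 FPKM or more where none was called. The members and lists were chosen with earlier results of these data known. Python 3.11.15, NumPy 2.4.6, pandas 2.3.3 and Matplotlib 3.10.9 were used.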

Additional observations from a re-analysis of the deposited data

Results flagged for a closer look

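For 8 of 27 HOX genes at 1 FPKM or more in a library, CHIR-P6 stood apart from the other NESC lines by Dixon's criterion for 4 samples on log2(FPKM + 1), each time as the highest line. The criterion was not applied to all genes, so whether this count is particular to HOX genes was not tested. For HOXC8 and HOXC10, 2 of the 8, the other NESC lines were all listed at 0, so that any level in CHIR-P6 would meet the criterion. The criterion is set for about 1 such case in 20 among normally distributed values. That rate does not apply here, since all 8 genes were near 0 in the other NESC lines, where log2(FPKM + 1) sets values close together. The genes also share the same line, and no conclusion about chance is drawn from the count. In CHIR-P6, HOXB7 was at 2.30 FPKM, HOXC8 at 1.40 FPKM, HOXD10 at 1.27 FPKM, HOXD11 at 1.24 FPKM, HOXC6 at 0.792 FPKM, HOXB8 at 0.742 FPKM, HOXB5 at 0.548 FPKM and HOXC10 at 0.270 FPKM. In CHIR-P23, C8-P7 and A9-P7 these genes were at 0.111 FPKM or less.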

How the results depend on the processing

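On realigned values, HOXA2 was called higher, and HOXB5, HOXB7, HOXC6, HOXC8 and HOXC10 lower, under every alternative. The count of members called lower was 9, with a range of 9 to 11 when 1 line was left out, 5 with a pseudocount of 5 (beside 7.42% of all genes), and 5 with labels as deposited, where other loci carry the names. The count called higher was 1, and 2 without both colonies, a setting added after seeing the data. The replicate numbers did not pair the libraries (correlations of deviations -0.03 to 0.06 over 21 pairs of lines), and with the 14 libraries as samples the count called lower was 10 with and without a replicate block (beside 15.7% and 15.8% of all genes), both adding HOXD8.

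Directions changed only for HOXA genes that had not been called, and the cause was not tested. Without both colonies the log2 fold change was 0.24 for HOXA5, 0.97 for HOXA7, 1.53 for HOXA9 and 1.10 for HOXA10. HOXA10 was at 0.12 with a pseudocount of 5, 0.16 with quantile normalization and 0.021 with rescaling, and HOXA11 at -0.59 with a pseudocount of 0.1. Leaving out 1 line gave -0.94 to 0.098 for HOXA7, -1.40 to 0.19 for HOXA9, -0.71 to 0.35 for HOXA10 and -0.36 to 0.27 for HOXA11. The median over all genes was -0.02, against 0.16 with quantile normalization and 0.09 with rescaling.

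Counts between lines depended on the pseudocount, since many members are near 0. With 0.1 in place of 1, RF-iN-d5 against RF-P3 gave 7 higher (beside 15.9% of all genes) and 3 lower (11.3%) of the 26 members, and RF-iN-d11 against RF-iN-d5 gave 2 lower (6.36%). CHIR-P23 against CHIR-P6 gave 1 higher (3.59%) and 13 lower (9.98%). Against CHIR-P23, C8-P7 gave 1 higher (2.86%) and 9 lower (7.04%), and A9-P7 gave 2 higher (4.63%) and 10 lower (6.14%). With 5, RF-iN-d5 had 1 higher (3.29%), CHIR-P6 2 higher (3.25%) and 3 lower (6.16%), CHIR-P23 0 lower (1.12%), C8-P7 2 lower (0.659%), and A9-P7 0 higher (0.353%) and 2 lower (0.832%). Rescaling gave 1 lower (2.61%) for RF-iN-d11. At a limit of 2 FPKM, 14, 17 and 17 members remained in RF-P3, RF-iN-d5 and RF-iN-d11, and 14, 9, 6 and 6 in CHIR-P6, CHIR-P23 and the colonies C8-P7 and A9-P7. Anterior members then numbered 3, 5 and 5, and 6, 5, 5 and 6.

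With a pseudocount of 5, 3.33% of all genes tested rose and 7.42% fell. Of 8 TALE cofactors tested 2 rose, and of 7 trunk and limb genes 2 fell. Of 13 cranial genes 0 rose and 1 fell, and of 19 flanking genes 1 rose and 2 fell. Without both colonies, 2.5% of all genes tested rose and 5.68% fell. Here 1 of the 8 TALE cofactors rose and 2 of the 7 trunk and limb genes fell. Of the 13 cranial genes 2 rose and 1 fell. Of 8 neuroepithelial markers 3 rose, 8 of 8 fibroblast markers fell, and 0 of the 19 flanking genes were called.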
